A study of Mus musculus with 6 samples.

Results

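The genes described here are 10 components of cytokine signalling through Janus kinases: the kinases *Jak1*, *Jak2* and *Tyk2*, the transcription factors *Stat3*, *Stat5a* and *Stat5b*, and the feedback inhibitors *Socs1*, *Socs2*, *Socs3* and *Cish*. They were taken by symbol from tag counts that list 20327 gene symbols, and all 10 were found. RNA was measured in stromal cells sorted from the inflamed mouse colon, in order to compare cells that express interleukin (IL)-11 with cells that do not. The mice were C57BL/6 animals of the genotype *Il11-Egfp*, 9 to 15 weeks old. They drank 1.5% dextran sulfate sodium (DSS), an agent that injures the colonic epithelium, for 5 days, were returned to water, and were killed on day 7. From their colons, live (DAPI-negative) cells lacking Ter119, CD45, CD31 and EpCAM were sorted by green fluorescence into the groups EGFP-Negative and EGFP-Positive, here IL-11- and IL-11+ cells, with 3 libraries each. Genotype, strain, agent, day and gate were shared by both groups.

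The reporter limits what the groups stand for. *Egfp* sits in the second exon of *Il11* on a bacterial artificial chromosome, so green fluorescence reports the transgene. Tags from the *Il11* sequence ahead of *Egfp* cannot be assigned to the reporter transcript or to endogenous *Il11*. Libraries held 1057170, 1078179 and 1169817 tags in IL-11- replicates 1, 2 and 3, against 1046538, 1022851 and 1049048 in the same order in IL-11+. A floor of 3 tags therefore corresponded to 2.56 to 2.93 CPM, the unit of counts scaled to the library total.

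Most cytokines of the IL-6 family, IL-11 among them, signal through the shared receptor chain gp130, on which JAK1, JAK2 and TYK2 phosphorylate STAT3 and, less strongly, other STATs. STAT5A and STAT5B are close relatives that act mainly downstream of growth hormone, prolactin and cytokines such as IL-2. The SOCS genes are induced by STATs, and their products block the receptor or the kinase, which makes their RNA a common readout of recent signalling, and STAT3 in the gut is known for its role in epithelial repair and in tumors after colitis.

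Fibroblast markers were abundant in every library. *Pdgfra*, a receptor of fibroblasts, had 742, 661 and 663 tags (IL-11-, replicates 1 to 3) against 768, 688 and 705 (IL-11+), and the collagen gene *Col1a1* had 400, 663 and 692 tags (IL-11-, replicates 1 to 3) against 557, 771 and 666 (IL-11+). Both genes overlapped between the groups. Of the 12 fibroblast markers listed, 7 did not overlap, beside 31.2% of all tested genes. Of these 7, 5 were higher and 2 lower in IL-11+ cells. The IL-11- libraries also held tags of smooth muscle, pericyte, glia and interstitial cell markers, summarised further on, so that the gated cells are called cells and not fibroblasts here.

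Of the 10 JAK, STAT and SOCS genes, *Stat5a* was higher and *Socs1* was lower in IL-11+ cells, and the other 8 did not pass the thresholds. A call required a fold change over 2 and an adjusted p under 0.05. All 10 genes reached 10 tags in 3 or more of the 6 libraries and were tested among 9334 genes. Across those 9334 genes 916 (9.81%) were called, 321 (3.44%) of them higher and 595 (6.37%) lower in IL-11+ cells, beside 1 of 10 in each direction here. No overlap between groups was seen for 4 of the 10 genes (*Stat5a*, *Stat5b*, *Socs1* and *Socs3*), beside 31.2% of all tested genes. For the log2 fold change, the median was -0.11 among the 10 genes, beside -0.01 for all tested genes.

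**Figure D1:**
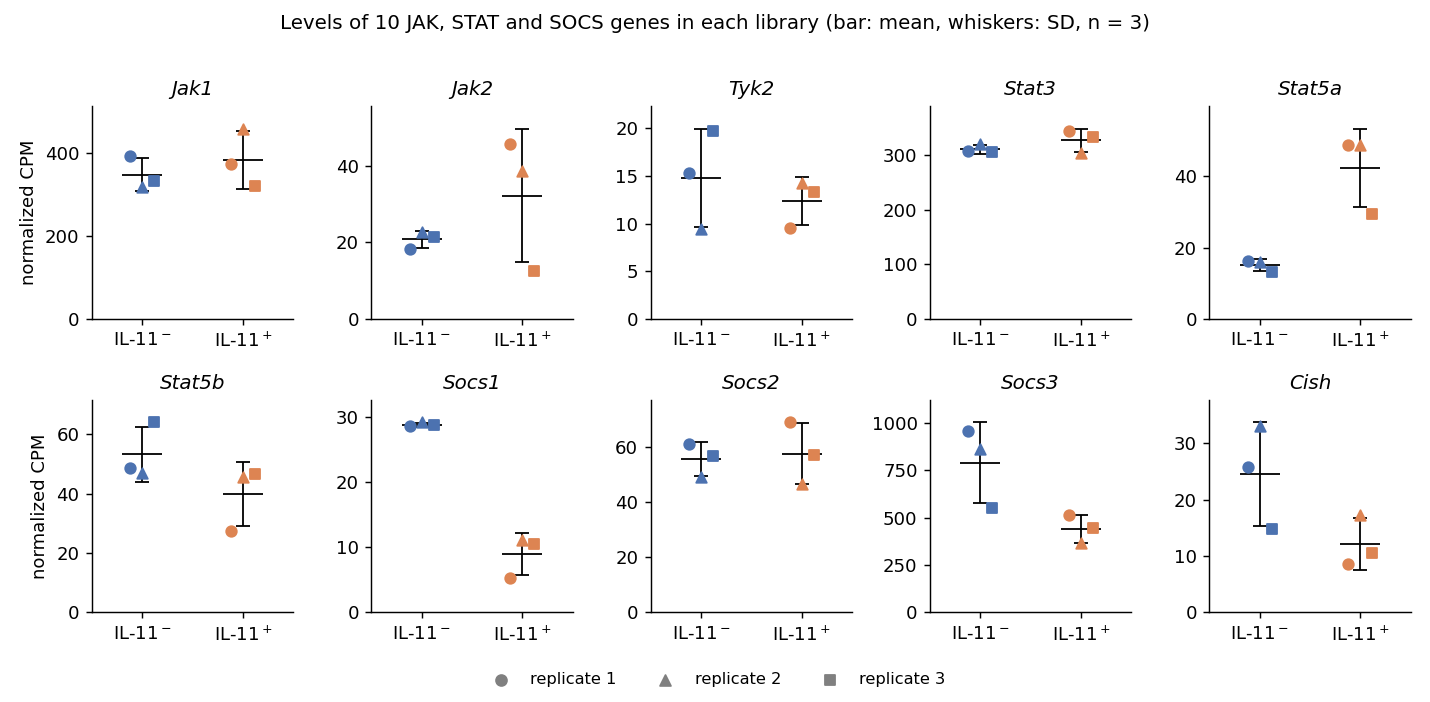
Normalized CPM (vertical axes, each from 0) of the 10 genes in the 3 IL-11- (blue) and 3 IL-11+ (orange) libraries, with replicates 1, 2 and 3 as circles, triangles and squares, the mean as a bar and the SD as whiskers. Every IL-11+ point lies above every IL-11- point for *Stat5a*, and below for *Stat5b*, *Socs1* and *Socs3*.

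The kinases are described first. *Jak1*, which pairs with gp130 and with most other cytokine receptors (chr4:101152367-101265282 in GRCm38), had 411, 337 and 404 tags (IL-11-, replicates 1 to 3) against 352, 451 and 335 (IL-11+). The groups overlapped, with IL-11+ replicate 2 the highest and IL-11- replicate 2 the lowest by normalized CPM. The log2 fold change was 0.14 (SE 0.175), with a 95% interval from -0.22 to 0.51.

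*Jak2*, the kinase of the growth hormone, prolactin and erythropoietin receptors (chr19:29251828-29313080), had 19, 24 and 26 tags (IL-11-, replicates 1 to 3) against 43, 38 and 13 (IL-11+). IL-11+ replicates 1 and 2 exceeded every IL-11- library, whereas IL-11+ replicate 3 had less than each. The levels were 20.7 ± 2.3 and 32.2 ± 17.5 normalized CPM (mean ± SD of 3 libraries), with a log2 fold change of 0.62 (SE 0.364), for which the edgeR quasi-likelihood test, after Benjamini-Hochberg correction, gave an adjusted p of 0.301. The value depended on single libraries. Without IL-11+ replicate 3 the log2 fold change was 1.02 and *Jak2* was called, and without IL-11+ replicate 1 it was 0.30 and *Jak2* was not called.

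*Tyk2*, the kinase of type I interferon and IL-12 family receptors that also binds gp130 (chr9:21104068-21131243), had 16, 10 and 24 tags (IL-11-, replicates 1 to 3) against 9, 14 and 14 (IL-11+). IL-11- replicate 3 was highest and the groups overlapped. Its log2 fold change was -0.26 (SE 0.378), with a 95% interval from -1.06 to 0.53. Summed over the 3 kinases, levels were 425.8, 349.5 and 372.8 normalized CPM in IL-11- and 428.2, 510.7 and 345.2 in IL-11+ replicates 1, 2 and 3, which also overlapped.

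*Stat3*, the main STAT downstream of gp130 (chr11:100885098-100939540, minus strand), had 322, 341 and 372 tags (IL-11-, replicates 1 to 3) against 325, 299 and 351 (IL-11+). All 6 libraries lay between 303.6 and 344 normalized CPM, and IL-11+ libraries were both the lowest (replicate 2) and the highest (replicate 1), so the groups overlapped. Levels of 311 ± 8.62 and 328 ± 21.4 normalized CPM (SD, n = 3) gave a log2 fold change of 0.07 (SE 0.156), with a 95% interval from -0.25 to 0.40. The edgeR quasi-likelihood test, after Benjamini-Hochberg correction, gave an adjusted p of 0.825. RNA level does not measure phosphorylation of the protein, which was not analysed here.

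*Stat5a* (chr11:100859351-100885169, plus strand) encodes a STAT first known from prolactin signalling in the mammary gland. It had 17, 17 and 16 tags (IL-11-, replicates 1 to 3) against 46, 48 and 31 (IL-11+). Each IL-11+ library exceeded each IL-11- library, with IL-11+ replicate 3 the closest to them. *Stat5a* rose from 15.1 ± 1.73 to 42.4 ± 11.1 normalized CPM (mean ± SD of 3 libraries), or by a log2 fold change of 1.48 (SE 0.291, 95% interval from 0.87 to 2.09). The edgeR quasi-likelihood test, after Benjamini-Hochberg correction, gave an adjusted p of 0.0014.

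*Stat5b* (chr11:100780731-100850724, minus strand), the relative of *Stat5a* that mediates growth hormone signals in liver, had 51, 50 and 78 tags (IL-11-, replicates 1 to 3) against 26, 45 and 49 (IL-11+). Each IL-11+ library had a lower normalized CPM than each IL-11- library, by a narrow gap between IL-11+ replicate 3 (46.7 normalized CPM) and IL-11- replicate 2 (47.1). The log2 fold change was -0.41 (SE 0.242), for which the edgeR quasi-likelihood test, after Benjamini-Hochberg correction, gave an adjusted p of 0.299. Its 95% interval ran from -0.92 to 0.10, and the gene was not called. Without IL-11+ replicate 1 the log2 fold change was -0.20.

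Set against each other, *Stat5a* gave 25.0%, 25.4% and 17.0% of the tags of both *Stat5* genes in IL-11- replicates 1, 2 and 3. In IL-11+ replicates 1, 2 and 3 it gave 63.9%, 51.6% and 38.8% of them. Every IL-11+ library had the larger share, 51.4% ± 12.6 against 22.5% ± 4.72 (SD, n = 3). The exact 95% binomial interval of IL-11+ replicate 3 ran from 28.1% to 50.3% and met those of IL-11- replicates 1 and 2, which reached 37.0% and 37.5%. The sum of both genes was 64.9, 63.1 and 77.2 normalized CPM in IL-11- and 76.3, 94.4 and 76.3 in IL-11+ replicates 1, 2 and 3. IL-11- replicate 3 was above IL-11+ replicates 1 and 3, so the summed levels overlapped.

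The 3 STAT genes lie side by side on chromosome 11. *Stat5b* and *Stat5a* are transcribed away from each other with 8626 bases between them, and the 3′ ends of *Stat5a* and *Stat3*, on opposite strands, share 72 bases. Tags were counted in 1 orientation, and none of the 50-nt windows in the first 300 nt of the annotated coding transcripts of these or the other 7 genes occurred in a transcript of another gene.

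**Figure D2:**
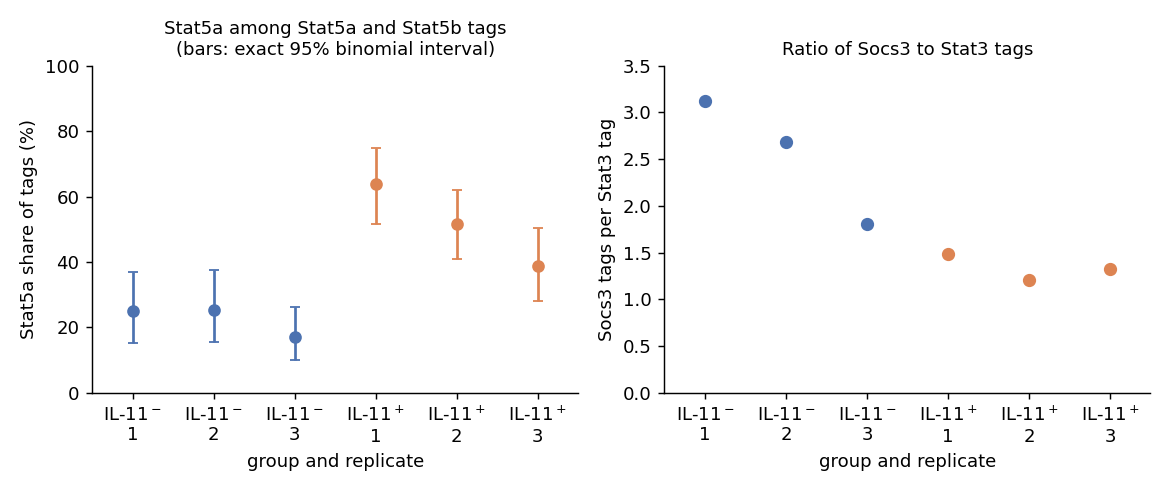
Left, share of *Stat5a* among the tags of *Stat5a* and *Stat5b* in each library (percent, bars are exact 95% binomial intervals, which cover counting error only). Right, tags of *Socs3* per tag of *Stat3* in each library. IL-11+ libraries (orange) lie above IL-11- libraries (blue) on the left, and on the right they lie between 1.21 and 1.49, below the IL-11- libraries, which lie between 1.81 and 3.12.

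Among the SOCS genes, *Socs1* was lower in IL-11+ cells, *Socs3* passed the adjusted p but not the required fold, and *Cish* and *Socs2* passed neither in the fit without the replicate block. *Socs1* (chr16:10782240-10785536), whose product inhibits JAKs directly and restrains interferon signalling, had 30, 31 and 35 tags (IL-11-, replicates 1 to 3) against 5, 11 and 11 (IL-11+). Each IL-11- library exceeded each IL-11+ library, of which replicate 1 was the lowest. *Socs1* fell from 28.9 ± 0.301 to 8.99 ± 3.21 normalized CPM (mean ± SD of 3 libraries), or by a log2 fold change of -1.66 (SE 0.334, 95% interval from -2.36 to -0.96). The edgeR quasi-likelihood test, after Benjamini-Hochberg correction, gave an adjusted p of 0.0017. The SD of the 3 IL-11- libraries was smaller than the Poisson counting error of their mean tag number, 5.1 normalized CPM for a single library.

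*Socs3*, which binds gp130 and is the inhibitor most tied to IL-6 family cytokines (chr11:117966079-117970047), had 1004, 917 and 673 tags (IL-11-, replicates 1 to 3) against 483, 361 and 467 (IL-11+). Each IL-11+ library had less than each IL-11- library, and IL-11- replicate 3 was the nearest to them. Levels were 792 ± 212 and 441 ± 72.8 normalized CPM (mean ± SD of 3 libraries), with a log2 fold change of -0.84 (SE 0.203), for which the edgeR quasi-likelihood test, after Benjamini-Hochberg correction, gave an adjusted p of 0.00693. At 1.79-fold the difference passed the adjusted p and not the fold-change threshold. The call again turned on 1 library, since without IL-11- replicate 3 the log2 fold change was -1.06 and *Socs3* was called lower. In the other direction, the adjusted p of the edgeR quasi-likelihood test (Benjamini-Hochberg) was no longer under 0.05 without IL-11+ replicate 2 (-0.72, adjusted p = 0.0601). The same held without IL-11- replicate 1 on the genes of the 6-library filter (-0.68), where the edgeR quasi-likelihood test (Benjamini-Hochberg) gave an adjusted p of 0.0526. With the replicate block the log2 fold change of *Socs3* was -0.82 (SE 0.149), still under the required fold. The edgeR quasi-likelihood test, after Benjamini-Hochberg correction, then gave an adjusted p of 2.56e-05.

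The ratio of *Socs3* to *Stat3* tags, which does not depend on library scaling, was 3.12, 2.69 and 1.81 in IL-11- and 1.49, 1.21 and 1.33 in IL-11+ replicates 1, 2 and 3. It was lower in every IL-11+ than in every IL-11- library, with means of 2.54 ± 0.667 and 1.34 ± 0.14 (SD, n = 3).

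*Cish*, a target of STAT5 whose product competes for receptor docking sites (chr9:107296026-107302784), had 27, 35 and 18 tags (IL-11-, replicates 1 to 3) against 8, 17 and 11 (IL-11+). IL-11+ replicate 2 was above IL-11- replicate 3 in normalized CPM, so the groups overlapped. The log2 fold change was -0.999 (SE 0.374), for which the edgeR quasi-likelihood test, after Benjamini-Hochberg correction, gave an adjusted p of 0.0824, and *Cish* was not called. Without IL-11- replicate 3 it was called lower, with a log2 fold change of -1.29, and over all fits with 1 library left out the value ranged from -1.34 to -0.72. With the replicate block it was -0.995 (SE 0.344), still under the required fold, and the edgeR quasi-likelihood test, after Benjamini-Hochberg correction, gave an adjusted p of 0.0317.

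*Socs2*, which dampens growth hormone signalling (chr10:95385362-95417180), had 64, 52 and 69 tags (IL-11-, replicates 1 to 3) against 65, 46 and 60 (IL-11+). Both the highest and the lowest normalized CPM were in IL-11+ libraries, replicates 1 and 2, and the groups overlapped. Its log2 fold change was 0.05 (SE 0.21), with a 95% interval from -0.39 to 0.49. Across all 4 SOCS genes, summed levels were 1074, 975.1 and 652.8 normalized CPM in IL-11- and 594.6, 441.7 and 523.6 in IL-11+ replicates 1, 2 and 3. Most of each sum came from *Socs3*.

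The promoters of the members were searched for TTC and GAA with any 3 bases between, the spaced palindrome that STAT dimers bind and that reads the same on both strands. RefSeq promoter windows of 300 bases, from 250 before to 50 after the start, were matched by symbol for 9 of the 10 genes (GRCm38), without *Socs2*. Of all 32851 such windows, 8.3% held the motif, and of the 11 windows of members 2 did, those of *Socs3* and *Cish*. They are printed because they are the member windows with a match, and neither gene was called. The *Socs3* stretch (chr11:117969501-117969530, minus strand, 1 match 154 bases before the RefSeq start) lies within the gene but in none of its annotated exons. The *Cish* stretch (chr9:107296654-107296683, plus strand, 2 matches) overlaps an exon and an untranslated region annotated for the gene. Capitals mark the matches.
*Socs3*: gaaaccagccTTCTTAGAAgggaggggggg
*Cish*: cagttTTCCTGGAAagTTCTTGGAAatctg
A match is a description of letters, and whether STATs bound there in these cells was not measured. The windows of *Stat5a* and *Socs1*, the called genes, held no match.

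The other genes of the pathway were described from lists. Counts of called genes in these and the later lists stand beside 3.44% higher and 6.37% lower among all tested genes. Of 4 other kinases and STATs, 2 were tested and none was called by edgeR or DESeq2. Of these, 1 had an unadjusted p under 0.05, *Stat2*, which acts in type I interferon signalling. It had 45, 44 and 67 tags (IL-11-, replicates 1 to 3) against 26, 23 and 33 (IL-11+), without overlap, and a log2 fold change of -0.76 (SE 0.243). It passed the adjusted p but not the required fold, and it no longer passed the adjusted p when any library except IL-11+ replicate 3 was left out. With the replicate block *Stat2* passed the adjusted p, at -0.76 (SE 0.242), and was not called.

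The 4 remaining SOCS-box genes that were listed were all tested, and none was called by edgeR or DESeq2. *Socs5* was the only one of these 4 with an unadjusted p under 0.05, with 16, 19 and 16 tags (IL-11-, replicates 1 to 3) against 17, 39 and 31 (IL-11+) and a log2 fold change of 0.92 (SE 0.327). It was called higher without IL-11+ replicate 1, at 1.17. Among 10 other inhibitors, 9 were tested and *Cbl*, which encodes a ubiquitin ligase that removes active receptors, was called higher. It had 35, 60 and 51 tags (IL-11-, replicates 1 to 3) against 84, 105 and 87 (IL-11+), without overlap. Its log2 fold change of 1.08 (SE 0.214) is little above the required fold, and the call was lost without IL-11- replicate 1 (0.90), without IL-11+ replicate 2 (0.97) and with library totals only. *Ptpn1*, a phosphatase of JAK2 and TYK2, had 109, 168 and 156 tags (IL-11-, replicates 1 to 3) against 249, 266 and 198 (IL-11+) and a log2 fold change of 0.89 (SE 0.192), again without overlap and under the required fold. It was called higher at 1.04 without IL-11- replicate 2 and without IL-11+ replicate 3. *Pias1*, the third of these inhibitors with an unadjusted p under 0.05, had the opposite sign (-0.57, SE 0.238, without overlap) and was not called.

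None of the 7 adaptors that link receptors to ERK and PI3K was called by edgeR or DESeq2, where 2 had an unadjusted p under 0.05. Both also passed the adjusted p and missed the required fold. *Pik3r1*, the regulatory subunit of PI3K, had 174, 228 and 196 tags (IL-11-, replicates 1 to 3) against 88, 94 and 115 (IL-11+). The groups did not overlap, and the log2 fold change was -0.86 (SE 0.176). *Shc1*, with 79, 75 and 113 tags (IL-11-, replicates 1 to 3) against 118, 130 and 111 (IL-11+), had the opposite sign (0.60, SE 0.179), also without overlap in normalized CPM. It did not pass the adjusted p without IL-11- replicates 1 or 2 or IL-11+ replicates 1 or 2, and its lowest value in these fits was 0.51. With the replicate block *Shc1* passed the adjusted p, at 0.60 (SE 0.173), and was not called.

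Upstream of the kinases, 3 of the 4 tested ligands of the IL-6 family were called higher and none lower by edgeR and DESeq2 alike, out of 9 listed, and all 4 had an unadjusted p under 0.05. *Il11*, the gene of the reporter, had 28, 51 and 89 tags (IL-11-, replicates 1 to 3) against 1357, 732 and 2658 (IL-11+), which is what the sort selected. *Lif* had 38, 43 and 203 tags (IL-11-, replicates 1 to 3) against 275, 268 and 559 (IL-11+) (log2 fold change 2.15, SE 0.398), and without IL-11- replicate 3 its log2 fold change reached 3.25. *Clcf1*, a ligand of the ciliary neurotrophic factor receptor, had a log2 fold change of 2.04 (SE 0.323). *Lif* was highest in replicate 3 of each group, and neither gene overlapped between the groups.

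*Il6* did overlap, with 539, 577 and 1496 tags (IL-11-, replicates 1 to 3) against 895, 719 and 2206 (IL-11+). Replicate 3 was the highest of its group on both sides, and within each replicate number the IL-11+ library had the higher normalized CPM. The log2 fold change was 0.72 (SE 0.336), and it was 1.23, called higher, without IL-11- replicate 3 and 0.14 without IL-11+ replicate 3. With the replicate block it was 0.70 (SE 0.138), still under the required fold. The edgeR quasi-likelihood test, after Benjamini-Hochberg correction, gave an adjusted p of 9.78e-05 with the block and 0.173 without it.

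Of 6 tested chains of the gp130 family, *Il6ra*, the IL-6 binding chain, was called lower, with 76, 81 and 48 tags (IL-11-, replicates 1 to 3) against 34, 21 and 24 (IL-11+) (log2 fold change -1.22, SE 0.285). *Il6st*, which encodes gp130, had 405, 426 and 660 tags (IL-11-, replicates 1 to 3) against 335, 394 and 427 (IL-11+), and overlapped (log2 fold change -0.20, SE 0.173). *Il11ra1*, the IL-11 binding chain, had 54, 49 and 61 tags (IL-11-, replicates 1 to 3) against 43, 39 and 36 (IL-11+). Its groups did not overlap, and its log2 fold change was -0.31 (SE 0.218). Of 10 tested chains for interferons, growth hormone and other ligands, the prolactin receptor *Prlr* was called lower, with 51, 32 and 40 tags (IL-11-, replicates 1 to 3) against 13, 13 and 10 (IL-11+) (log2 fold change -1.61, SE 0.314). *Il13ra1*, a chain of the IL-4 and IL-13 receptor, was at 0.95 (SE 0.188), above the IL-11- libraries in all IL-11+ libraries and not called. It was called without IL-11- replicate 2 (1.01) and without IL-11+ replicate 3 (1.10).

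**Figure D3:**
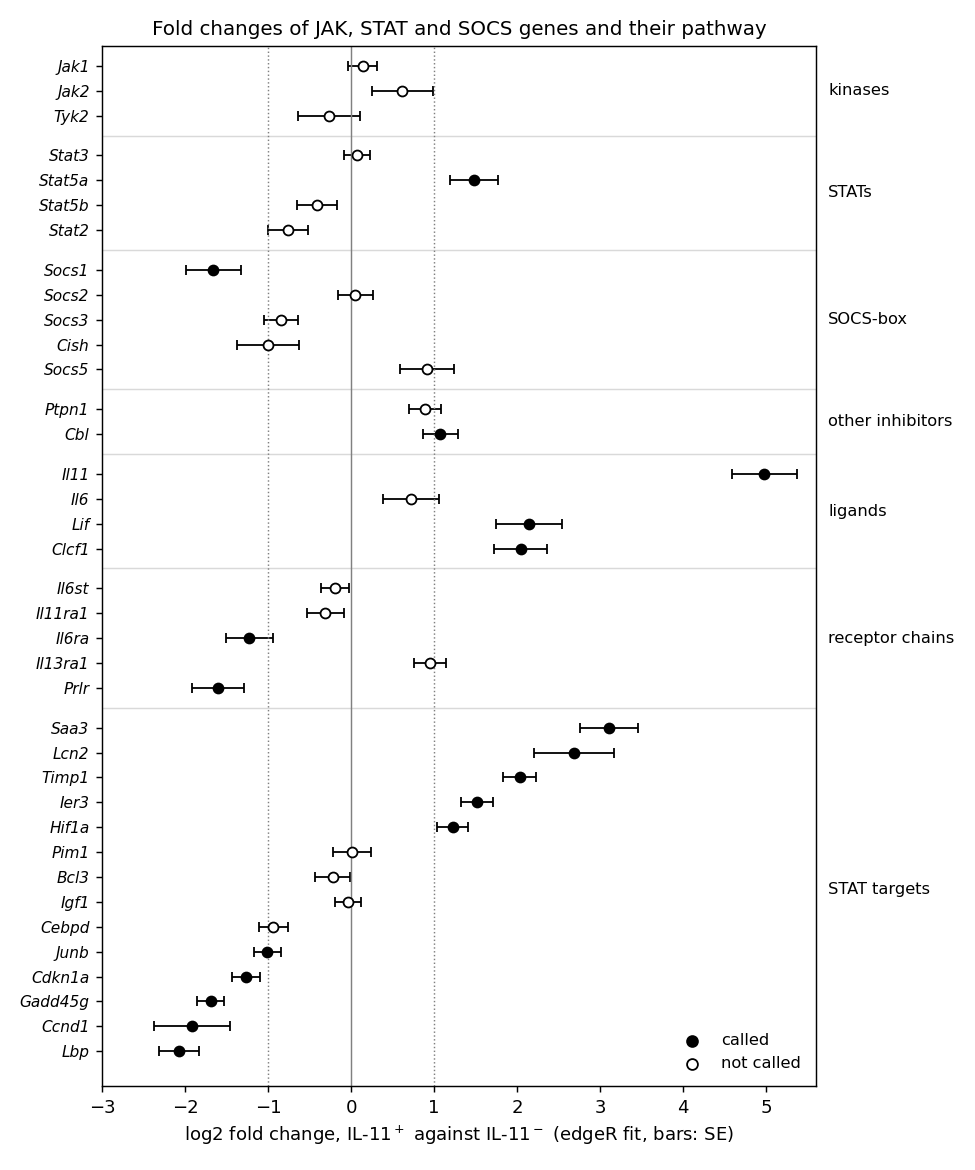
Log2 fold changes of IL-11+ against IL-11- cells (horizontal axis, bars are SE, 3 libraries per group) for the 10 genes and named genes of their pathway, grouped by role. Filled points are called, open points are not, and dotted lines mark a fold change of 2. *Stat5a* (1.48) and *Socs1* (-1.66) are the filled points among the 10 genes.

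Known targets of STAT3 moved in both directions. Of 26 listed genes 23 were tested, and 5 were called higher and 5 lower, with a median log2 fold change of -0.20 over the tested genes. The higher genes were *Saa3* (3.11, SE 0.347), *Lcn2* (2.68, SE 0.482), *Timp1* (2.03, SE 0.198), *Ier3* (1.52, SE 0.194) and *Hif1a* (1.22, SE 0.19). *Saa3* and *Lcn2* encode secreted acute phase proteins, and both are also targets of NF-κB. With 1 library left out, the value of *Lcn2* ranged from 2.17 without IL-11- replicate 3 to 3.35 without IL-11- replicate 1. The lower genes were *Lbp* (-2.08, SE 0.241), *Gadd45g* (-1.69, SE 0.167), *Myc* (-1.06, SE 0.198), *Junb* (-1.01, SE 0.162) and *Ccnd1*. *Ccnd1* passed the filter through the IL-11- libraries alone and is described with the STAT5 targets. *Myc* was not among the genes followed through all alternative fits. *Lbp* encodes another acute phase protein, which binds lipopolysaccharide.

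In single libraries, *Saa3* had 2062, 2335 and 806 tags (IL-11-, replicates 1 to 3) against 15835, 15721 and 9439 (IL-11+). *Lbp* had 247, 163 and 172 tags (IL-11-, replicates 1 to 3) against 26, 45 and 54 (IL-11+). Neither gene overlapped between the groups, and they moved in opposite directions. *Junb*, at -1.01, stands at the fold-change threshold and lost its call without IL-11- replicate 2 (-0.96), IL-11+ replicate 1 (-0.98) or IL-11+ replicate 3 (-0.99), and with no filter beyond 1 tag (-0.97).

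Targets that were not called included *Cebpd* (-0.94, SE 0.178), which passed the adjusted p but not the required fold, *Bcl3* (-0.22, SE 0.21) and *Pim1* (0.01, SE 0.228). *Cebpd* had 840, 750 and 919 tags (IL-11-, replicates 1 to 3) against 299, 377 and 506 (IL-11+), without overlap, and was called lower without IL-11+ replicate 3 (-1.10) and with library totals only (-1.01). *Pim1*, which STAT3 and STAT5 both induce, had 226, 171 and 123 tags (IL-11-, replicates 1 to 3) against 176, 164 and 132 (IL-11+), with overlap.

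For STAT5, 7 of 9 listed targets were tested, none was called higher by edgeR or DESeq2 and 2 were called lower by each, with a median of -0.28. The unadjusted p was under 0.05 for 3 of the 7. Some of the 7, *Ccnd1* and *Pim1* among them, are on the STAT3 list too. The called genes were the cell cycle genes *Cdkn1a* (-1.26, SE 0.167) and *Ccnd1* (-1.92, SE 0.458). *Ccnd1* had 15, 27 and 18 tags (IL-11-, replicates 1 to 3) against 2, 6 and 6 (IL-11+). *Igf1*, the growth hormone target, had 368, 349 and 456 tags (IL-11-, replicates 1 to 3) against 310, 324 and 389 (IL-11+), with a log2 fold change of -0.04 (SE 0.158), and overlapped. The call of *Ccnd1* was lost without IL-11- replicate 2 on the genes of the 6-library filter (-1.60). *Ccnd1* reached 10 tags in IL-11- libraries alone, so it passed the filter through that group, and it was not tested when an IL-11- library was left out and the filter repeated.

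Immediate early and stress genes respond within minutes to many stimuli, tissue dissociation among them, and *Socs3* is an early response gene too. All 13 listed genes of this kind were tested, 1 was called higher and 3 lower, and 12 had a negative log2 fold change, with a median of -0.78. The higher gene, *Ier3*, and *Junb* and *Fos* were counted among the STAT3 targets too. Summed levels were 30080, 30950 and 23510 normalized CPM in IL-11- and 17290, 18820 and 17170 in IL-11+ replicates 1, 2 and 3, and *Egr1* was the most abundant of them. As for *Socs3*, each IL-11- library exceeded each IL-11+ library and IL-11- replicate 3 was the lowest of its group. *Atf3* had a log2 fold change of -2.19 (SE 0.27), *Zfp36* of -1.17 (SE 0.177) and *Fos*, not called, of -0.95 (SE 0.177). *Fos* was called lower without IL-11- replicate 3 (-1.07), without IL-11+ replicate 2 (-1.02) and with library totals only (-1.03). The part of these genes' common level in the results for *Socs3*, *Socs1* and *Cish* was not tested.

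Markers of other cells moved with the groups as well. Of 8 smooth muscle markers 7 were called lower in IL-11+ cells, and their summed level was 2604, 3255 and 4076 normalized CPM in IL-11- and 130.4, 184.8 and 369.1 in IL-11+ replicates 1, 2 and 3. The most abundant was *Myh11*, with 850, 943 and 1332 tags (IL-11-, replicates 1 to 3) against 18, 18 and 84 (IL-11+). Of 8 pericyte markers 7 were tested and 4 called lower, with sums of 2782, 2379 and 2215 in IL-11- and 1081, 900.6 and 806.8 in IL-11+ replicates 1, 2 and 3, led by *Rgs5*. IL-11- libraries were higher for both sums. *Kcnj8* (0.71, SE 0.227, with overlap) and *Abcc9* (0.66, SE 0.182, without overlap) had the opposite sign and passed the adjusted p but not the required fold. Neither passed the adjusted p without IL-11- replicate 2, IL-11- replicate 3 or IL-11+ replicate 1, *Kcnj8* did not without IL-11+ replicate 2 either, and the lowest values in such fits were 0.52 and 0.53. With the replicate block both passed the adjusted p and not the required fold (0.70, SE 0.158, and 0.66, SE 0.142).

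Of 5 glia markers 2 were tested and 1 called lower. They summed to 136.5, 171.5 and 110.9 normalized CPM in IL-11- and 135.7, 155.3 and 72.48 in IL-11+ replicates 1, 2 and 3, most of each sum from *Ncam1*, which was not called. *Gfap*, the called gene, had 22, 23 and 26 tags (IL-11-, replicates 1 to 3) against 1, 0 and 1 (IL-11+), and the 3 untested markers had no tag in any IL-11+ library. Markers of interstitial and mesothelial cells, led by *Ano1*, summed to 275, 167.7 and 268.5 in IL-11- and 21.2, 20.31 and 50.54 in IL-11+ replicates, and all 3 tested of 6 were called lower. *Kit*, the defining gene of interstitial cells of Cajal, had 63, 34 and 69 tags (IL-11-, replicates 1 to 3) against 0, 0 and 7 (IL-11+). *Kit*, *Gfap* and 1 each of the smooth muscle and pericyte markers called lower reached 10 tags in IL-11- libraries alone, so the filter admitted them through that group and the direction of their calls is in part set by it. Of 12 fibroblast markers, all tested, 2 were called higher and none lower by edgeR and DESeq2 alike, and 7 had an unadjusted p under 0.05. In the fit of all 6 libraries, 2 more were higher and passed the adjusted p but not the required fold. The 12 markers summed to 26280, 26760 and 28850 in IL-11- and 45410, 37770 and 33290 in IL-11+ replicates 1, 2 and 3, led by *Dcn*. *Dpt* (-0.96, SE 0.177) and *Lum* (-0.64, SE 0.201) had the opposite sign without overlap and passed the adjusted p but not the required fold. *Lum* did not pass the adjusted p without IL-11- replicates 2 or 3 or IL-11+ replicates 1 or 2, and was at -0.40 without IL-11- replicate 3. With the replicate block *Lum* passed the adjusted p, at -0.61 (SE 0.137), and was not called. *Dpt* was called lower without IL-11+ replicate 2 (-1.01), without IL-11+ replicate 3 (-1.04) and with library totals only (-1.03). The part of these cell types in the values of *Stat5a*, *Socs1*, *Socs3* and *Cish* was not tested, and in sorted bulk samples fewer cells of a type and less RNA per cell cannot be told apart.

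The cells that the gate should remove left few tags, apart from erythroid cells in IL-11- replicates 1 and 3. None of the 10 leukocyte markers reached the filter, and they summed to 15.28, 30.15 and 26.28 normalized CPM in IL-11- and 36.04, 13.2 and 16.21 in IL-11+ replicates 1, 2 and 3, led by *S100a8*. *Ptprc*, which encodes CD45, had 1, 2 and 7 tags (IL-11-, replicates 1 to 3) against 0, 3 and 0 (IL-11+). The defining endothelial and epithelial genes *Pecam1* (CD31) and *Epcam* had 0 or 1 tag in every library. The 7 counted endothelial markers, led by *Tek*, summed to 42.97, 27.32 and 37.77 in IL-11- and 18.02, 9.138 and 7.629 in IL-11+ replicates, and 1 was tested and called lower. The 9 counted epithelial markers, led by *Lgals4*, summed to 33.42, 26.38 and 56.66 in IL-11- and 9.539, 13.2 and 21.93 in IL-11+ replicates, and again 1 was tested and called lower. The call of *Tek* was lost without IL-11+ replicate 2, and that of *Lgals4* without IL-11- replicate 3, IL-11+ replicate 1 or IL-11+ replicate 2. The 6 erythroid markers, led by *Hbb-bs*, did not pass the filter, with sums of 90.71, 0 and 305.5 in IL-11- and 19.08, 2.031 and 19.07 in IL-11+ replicates 1, 2 and 3, so that IL-11- replicates 1 and 3 stood out.

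The tested genes most like *Stat3* over the 6 libraries, by Pearson's r of log2 normalized CPM among 3207 genes with a mean of at least 50 normalized CPM, were *Taf15* (r = 0.968), *Nnmt* (r = 0.956) and *Fam91a1* (r = 0.947). For *Socs3* they were *Cox7a2l* (r = 0.991), *MT-Atp6* (r = 0.991) and *Tnrc6b* (r = 0.99). In all, 17 genes had an r over 0.9 with *Stat3* and 83 with *Socs3*. These values are descriptions of 6 libraries in 2 groups, which share the difference between groups, and none of the 6 named genes was called.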

How the data were processed

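Polyadenylated RNA from the sorted cells had been sequenced by 5′Tag-seq, which reads the 5′ part of amplified cDNA. Per the submitters' processing notes and the methods, the authors trimmed reads with Cutadapt 1.18 and mapped them with Bowtie2 2.2.5 to RefSeq mm10 RNA in 1 orientation. They deposited counts of tags per gene symbol, not normalized, and analysed them in R 3.5.1. How tags with several targets were handled is not given in the sources used here, nor are molecular identifiers, so intervals and floors cover counting error only.

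All symbols with at least 10 tags in at least 3 libraries were fitted in R 4.3.3 with edgeR 4.0.16 (TMM scaling, glmQLFit and glmQLFTest) and adjusted over all tested genes by Benjamini-Hochberg. Normalized CPM uses the TMM-scaled totals, and a prior count of 2 was used for log2 values in correlations. The fit was also run on simulated data with 200 changed genes, and the outcome is not reported here. The members and all gene lists were chosen with earlier results of these data known. Named were the 10 genes, *Il11*, *Il6st* and *Il11ra1*, called genes of the pathway lists (at most 8 per list by p), defining and most abundant cell type markers and, for *Stat3* and *Socs3*, the 3 most correlated genes. *Ptpn1*, *Socs5*, *Il6*, *Fos*, *Cebpd*, *Stat2*, *Pim1*, *Bcl3*, *Igf1*, *Il13ra1*, *Pik3r1*, *Shc1*, *Pias1*, *Gfap*, *Kcnj8*, *Abcc9*, *Dpt*, *Lum* and *Myc* were chosen after their values were seen. Gene positions and exons are from GENCODE release M21, promoters from RefSeq (GRCm38).

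Both groups carry replicate numbers 1 to 3, and the methods name 3 mice. Deviations from the group means of same-numbered libraries correlated over 5063 genes that averaged 30 tags or more (r = 0.231, 0.186 and 0.268, across genes, which are not independent). The numbers were therefore taken to pair the samples. Unless another fit is named, SE, intervals and adjusted p are from the fit without this pairing, and the leave-one-out fits also left it out. The replicate block was an alternative fit. The others were RLE scaling, library totals only, iterative TMM as in TCC (3 rounds), DESeq2 1.42.0, no filter beyond 1 tag, a mean of at least 10 tags, adjusted p alone, thinning to the smallest library, and leaving out each library. Leave-one-out fits on the genes of the 6-library filter were added after seeing the data.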

Additional observations from a re-analysis of the deposited data

How the results depend on the processing

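*Stat5a* was called higher and *Socs1* lower under all 21 alternatives, with log2 fold changes from 1.36 to 1.69 and from -1.83 to -1.40 and adjusted p of at most 0.0119 and 0.0116 from the edgeR quasi-likelihood test, after Benjamini-Hochberg correction, or DESeq2. With the replicate block, 337 genes were called higher and 648 lower, 1 of the 10 members in each direction, and no call of a named gene changed. By adjusted p alone, 638 of all tested genes were higher and 812 lower, and 2 members lower, *Socs3* being added, which follows from dropping the fold-change threshold. With 1 library left out, 1 to 2 members were called higher and 1 to 3 lower: *Jak2* was added without IL-11+ replicate 3, and *Socs3* and *Cish* without IL-11- replicate 3, and the cause was not tested. Over all tested genes, 251 to 329 were then called higher and 341 to 580 lower. The fewest lower calls were made without IL-11- replicate 1, when 8855 genes passed the filter. In these fits the log2 fold change ranged from -0.51 to 0.0083 for *Tyk2*, -0.0882 to 0.19 for *Socs2*, -0.26 to 0.29 for *Pim1*, -0.10 to 0.012 for *Igf1* and -0.0676 to 0.43 for *Ncam1*, none of them called, with changes of sign. Scaling by library totals alone turned *Stat3* (-0.0092), *Socs2* (-0.0369) and *Pim1* (-0.0759), which follows from a common shift (the median over genes went from -0.0118 to -0.095). Testing every gene with a tag turned *Igf1* (0.0046), and the cause was not tested. The alternatives gave 1398 values of the 67 named and tested genes other than *Myc*. Of these values, 1309 kept their sign and stayed called or not called, which takes both thresholds together. Another 21 lost a call, 45 gained one and 23 changed sign. The gained calls include those by adjusted p alone, a setting that can only add calls. *Tyk2*, *Jak2*, *Cish* and *Socs1* each had a library with at most 13 tags. Thinned to the smallest library, their log2 fold changes were -0.38, 0.62, -0.96 and -1.64 in this order, and of them *Socs1* alone was called. The part of low tag numbers in their values was not tested otherwise.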
